A study of Danio rerio with 4 samples.

Results

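The DNA replication genes described here were 37 genes of the replication fork and its supply, found by their gene name in the deposited table, and all 37 were present among its 26267 genes. They were grouped by role into the MCM helicase, the GINS proteins with Cdc45, origin licensing, the DNA polymerases with primase, the RFC clamp loader, the PCNA clamp with lagging strand enzymes, nucleotide supply, and a last group of cyclin E, histone mRNA and histone chaperone genes. RNA was sequenced in bulk from zebrafish neural crest cells sorted for the sox10:DsRed reporter at 20 hours post fertilization (hpf). The mutant samples came from embryos described in their titles as nr2f2;nr2f5 mutant, with a genotype entry in which nr2f5 is mutant but nr2f2 is unknown, and no alleles are named in the labels. The control samples came from wild-type embryos carrying the same reporter. There were 2 biological replicates per group, each from many embryos (88 and 35 for mutant samples, 110 and 120 for wild-type samples, not tied to replicate numbers), and the labels do not say whether the replicates came from separate crosses.

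Before a cell divides it copies its genome once. In G1 the proteins Cdc6 and Cdt1 load rings of 6 MCM subunits onto origins of replication, and in S phase Cdc45 and GINS join the rings to make the active helicase. Primase and DNA polymerase alpha start each strand, polymerases epsilon and delta extend them, and RFC places the sliding clamp PCNA that holds the polymerases on DNA. Many of these genes are transcribed together under E2F control when a cell enters S phase, so their RNA is often read as a mark of cycling cells. Neural crest cells divide while they migrate into the pharyngeal arches.

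The label of the mutant samples was checked on its target: nr2f5 stood at 46.5 and 47.1 TPM in mutant cells against 579 and 559 TPM in wild-type cells. The log2 fold change of mutant over wild type, log2FC, was -3.58 ± 0.12 (SE, n = 2 per group, limma adjusted p = 1.1e-06), and errors after ± are standard errors from the same fit. The level of nr2f2 was 67.2 and 51.7 TPM in mutant cells against 73.5 and 59.3 TPM in wild-type cells, and its adjusted p was 0.67. TPM is transcript abundance per length, scaled to the same total in each sample, so levels can be compared between genes but carry no read depth. All 9 neural crest markers were above 0 in every sample, with summed levels of 2655 and 2506 TPM in mutant cells against 2828 and 2763 TPM in wild-type cells; foxd3 and crestin were called higher and twist1a and dlx2a lower in mutant cells. Markers of other cells were unevenly spread. The summed level of 9 skeletal muscle markers was 201 and 87.4 TPM in mutant cells against 610 and 1874 TPM in wild-type cells, with 4 of 8 tested called lower. That of 7 myeloid markers was 21.1 and 31.3 TPM against 172 and 266 TPM, with 6 of 7 called lower, lyz at 0 in both mutant samples and mpeg1.1 at 0 in mutant replicate 1. That of 7 epidermal markers was 516 and 399 TPM in mutant cells against 502 and 2760 TPM in wild-type cells, with 1 of 7 called lower. The endothelial sum was 20.0 and 14.3 TPM in mutant cells against 56.4 and 38.3 TPM in wild-type cells, with 2 of 6 tested called lower. The erythroid sums were 269 and 394 TPM against 566 and 367 TPM, those of central nervous system progenitors 342 and 220 TPM against 327 and 221 TPM, and those of the otic vesicle 33.3 and 33.4 TPM against 27.6 and 15.7 TPM, with none called among these 3 lists. The part of these cells in the levels of the replication genes was not tested. In bulk samples fewer cells of a type and less RNA per cell cannot be told apart.

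None of the 37 replication genes passed the test between mutant and wild-type cells. The test was limma on log2(TPM + 1) over the 14217 genes that averaged at least 1 TPM, with Benjamini-Hochberg adjustment, and all 37 replication genes passed that filter. The count of 0 stands against 580 of all genes tested, 4.08%, of which 1.13% were higher and 2.95% were lower in mutant cells. At an unadjusted p under 0.05, 7 replication genes (18.9%) stood out, all lower in mutant cells, against 20.4% of all genes, 14.3% lower and 6.05% higher. Those 7 were mcm3, mcm6, mcm7, pola1, pold1, pold2 and ccne1. The count was 4 with median-ratio scaling, 3 with limma without trend and robust, and 9 with quantile normalization. Over all genes the counts were 3108 of 14141, 2531 of 14217 and 2768 of 14217, in the same order. Leaving out 1 sample lowered or raised the count of replication genes, depending on the sample. The median log2FC of the 37 genes was -0.12, beside -0.16 for all genes tested, and their log2FCs ran from -0.72 for pola1 to 0.25 for prim1. For 34 of the 37 genes the 95% interval of the log2FC lay within a 2-fold difference in either direction, that is, between -1 and 1, and the exceptions were pola1, pole and ccne1, whose intervals reached -1.17, -1.32 and -1.05. Of all 14217 genes tested, whose median level is lower, 6341 had an interval within these bounds.

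**Figure D1:**
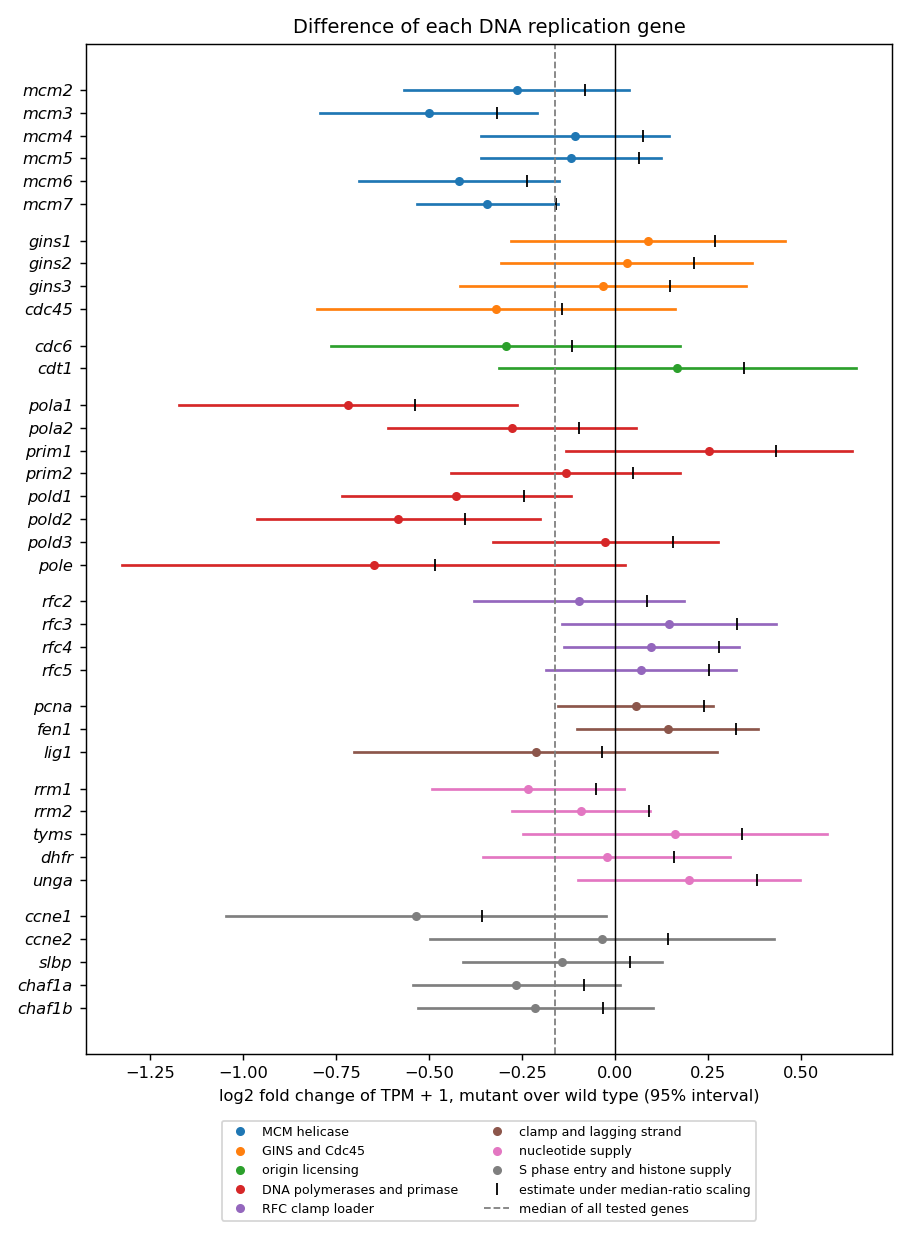
Log2 fold change of TPM + 1 in mutant over wild-type cells for each DNA replication gene (points, coloured by group of genes) with its 95% interval from limma, n = 2 samples per group. Ticks mark the estimate under median-ratio scaling and the dashed line the median of all genes tested, -0.16; most intervals span 0, and those of mcm3, mcm6, mcm7, pola1, pold1, pold2 and ccne1 lie below it.

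Counted by separation of the samples, 19 of the 37 genes, 51.4%, had both mutant samples under both wild-type samples, against 34.9% of all genes tested, and 5, 13.5%, had them above, against 18.2%. This split depended on the scaling. Median-ratio scaling, which put the median log2FC of all genes at 0.0014, left 9 genes below (24.3%, against 25.5% of all genes) and 9 above (24.3%, against 28.7%), and the median of the 37 genes was 0.065; under it, too, none of the 37 was called, against 5.44% of all genes. The 9 that lay below under both scalings were mcm3, mcm6, mcm7, pola1, pold1, pold2, pole, ccne1 and chaf1a. The 5 that lay above under both were prim1, rfc4, rfc5, fen1 and unga.

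The levels spanned a wide range, with the same genes at its ends in every sample. In all 4 samples pcna was the most abundant of the 37, followed by rrm2 and mcm7, and pole was the least abundant, preceded by ccne1. Levels ran from 5.96 TPM for pole in mutant replicate 2 to 2187 TPM for pcna in the same sample, and the median gene averaged 129.8 TPM over the samples, against 10.2 TPM for the median of all genes tested. Together the 37 genes made up 1.08% and 1.08% of all TPM in mutant cells and 1.16% and 1.18% in wild-type cells. Replicates were close: the median absolute log2 difference between replicates was 0.12 in mutant cells and 0.15 in wild-type cells for the 37 genes, against 0.27 and 0.29 for all genes tested, whose levels are lower.

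**Figure D2:**
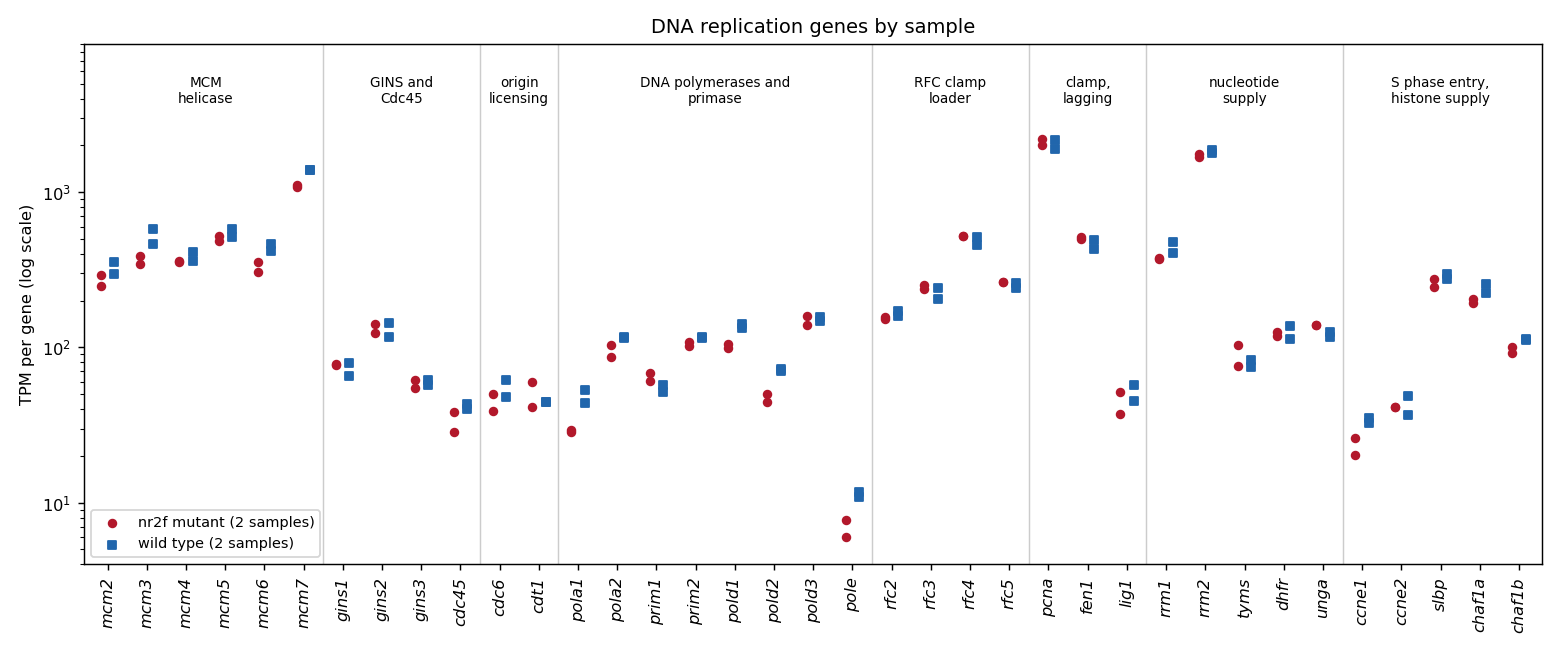
TPM of each DNA replication gene in every sample (log axis), with mutant samples as red circles left of wild-type samples as blue squares, in 8 groups by role. Levels run from about 6 TPM for pole to 2187 TPM for pcna, and the distance between groups is small beside the distance between genes.

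The MCM genes encode the 6 subunits of the ring-shaped helicase that unwinds DNA at the fork. Their summed level was 3036 and 2817 TPM in mutant cells against 3787 and 3442 TPM in wild-type cells, a ratio of 0.810 between the group means, which was 0.920 under median-ratio scaling. For 5 of the 6 genes the mutant samples were both lower than the wild-type samples, beside 34.9% of all genes, and for mcm5 the groups overlapped. Under median-ratio scaling 3 of the 6, mcm3, mcm6 and mcm7, had both mutant samples lower, beside 25.5% of all genes. With that scaling mcm4 and mcm5 had both higher, beside 28.7% of all genes. The most abundant subunit was mcm7, at 1115 and 1076 TPM in mutant cells against 1396 and 1384 TPM in wild-type cells (log2FC -0.34 ± 0.085, limma, SE, n = 2 per group, adjusted p = 0.057). It passed with quantile normalization (adjusted p = 0.020), while under median-ratio scaling its adjusted p was 0.62. The subunit mcm3 stood at 390 and 346 TPM in mutant cells against 582 and 465 TPM in wild-type cells (log2FC -0.50 ± 0.13, adjusted p = 0.068). Under median-ratio scaling its adjusted p was 0.28. For mcm6 the values were 355 and 306 TPM in mutant cells against 465 and 418 TPM in wild-type cells (log2FC -0.42 ± 0.12, adjusted p = 0.089). Its limma adjusted p was 0.42 under median-ratio scaling. With quantile normalization neither mcm3 nor mcm6 passed (limma adjusted p = 0.072 and 0.069). In a limma fit that also took the replicate number as a block, mcm3, mcm6 and mcm7 were called lower. Whether the replicate numbers pair the samples is not known.

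The other MCM subunits differed less. For mcm4 the values were 357 and 359 TPM in mutant cells against 412 and 361 TPM in wild-type cells, with wild-type replicate 2 next to the mutant samples (log2FC -0.11 ± 0.11, adjusted p = 0.62). For mcm2 they were 294 and 247 TPM against 354 and 296 TPM (log2FC -0.26 ± 0.14, adjusted p = 0.30), and for mcm5 525 and 483 TPM against 577 and 518 TPM (log2FC -0.12 ± 0.11, adjusted p = 0.56). The signs of mcm4 and mcm5 were positive under median-ratio scaling, at 0.076 and 0.065, while those of the other subunits stayed negative. The RNA of the subunits was not equal in amount in either group. mcm7 alone held 36.7% and 38.2% of the MCM total in mutant cells and 36.9% and 40.2% in wild-type cells, whereas mcm2 held 9.69% and 8.76% in mutant cells and 9.34% and 8.61% in wild-type cells. The share of mcm5 was 17.3% and 17.1% in mutant cells against 15.2% and 15.0% in wild-type cells, and that of mcm3 was 12.9% and 12.3% against 15.4% and 13.5%. The share of mcm4 was 11.8% and 12.8% in mutant cells against 10.9% and 10.5% in wild-type cells, and that of mcm6 was 11.7% and 10.8% against 12.3% and 12.1%. For these 4 subunits the shares did not overlap between groups, and for mcm2 and mcm7 they did. In each sample the shares add up to the whole, so they do not vary independently. Separation in TPM is frequent with 2 samples per group: 34.9% of all genes had both mutant samples lower and 18.2% both higher. How often shares separate was not computed.

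The GINS genes encode a small complex that tethers the helicase to polymerase epsilon, and Cdc45 is its partner in the active helicase. The summed level of gins1, gins2, gins3 and cdc45 was 293 and 309 TPM in mutant cells against 283 and 324 TPM in wild-type cells, so the groups overlapped. For gins3 the levels were 54.4 and 61.4 TPM in mutant cells against 57.1 and 61.2 TPM in wild-type cells (log2FC -0.032 ± 0.17, adjusted p = 0.93), with a positive sign under median-ratio scaling and quantile normalization. The gene cdc45 stood at 38.4 and 28.7 TPM in mutant cells against 43.2 and 40.3 TPM in wild-type cells (log2FC -0.32 ± 0.22, adjusted p = 0.43), the only one of the 4 whose groups did not overlap, beside 34.9% of all genes with both mutant samples lower. Under median-ratio scaling the groups overlapped for cdc45 as well. The log2FCs of gins1 and gins2 were 0.088 and 0.031, with intervals from -0.28 to 0.46 and from -0.31 to 0.37.

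Licensing of origins depends on Cdc6, an ATPase of the loading machine, and on Cdt1, which brings the MCM ring and is destroyed in S phase. Neither gene separated the groups in TPM as deposited. Under median-ratio scaling both mutant samples were higher for cdt1, beside 28.7% of all genes, and its limma adjusted p was 0.35. The level of cdc6 was 49.8 and 39.1 TPM in mutant cells against 47.7 and 61.9 TPM in wild-type cells (log2FC -0.29 ± 0.21, adjusted p = 0.45), and cdt1 stood at 60.3 and 41.4 TPM in mutant cells against 44.2 and 44.6 TPM in wild-type cells (log2FC 0.17 ± 0.21, adjusted p = 0.69). Mutant replicate 1 was the highest of the 4 samples for cdt1 and mutant replicate 2 the lowest.

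Among the polymerase and primase genes the summed level was 593 and 606 TPM in mutant cells against 707 and 703 TPM in wild-type cells, a ratio of 0.85, which was 0.964 under median-ratio scaling. In 6 of the 8 genes the mutant samples were both lower than the wild-type samples. In prim1 both were higher, and in pold3 the groups overlapped. Of all genes, 34.9% had both mutant samples lower and 18.2% both higher. Under median-ratio scaling 4 of the 8 had both lower, beside 25.5% of all genes, and pola2 and prim2 overlapped. The catalytic subunit gene of polymerase alpha, pola1, stood at 29.5 and 28.6 TPM in mutant cells against 53.5 and 43.8 TPM in wild-type cells (log2FC -0.72 ± 0.20, adjusted p = 0.087). Of its partners, pola2, the accessory subunit gene, was at 103 and 87.2 TPM against 114 and 116 TPM (log2FC -0.28 ± 0.15, adjusted p = 0.33), and the large primase subunit gene prim2 at 103 and 108 TPM against 115 and 116 TPM (log2FC -0.13 ± 0.14, adjusted p = 0.62). The small, catalytic primase subunit gene prim1 stood at 61.1 and 68.2 TPM in mutant cells against 51.2 and 57.0 TPM in wild-type cells (log2FC 0.25 ± 0.17, adjusted p = 0.43).

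Polymerase delta copies the lagging strand. Its catalytic subunit gene pold1 stood at 105 and 98.6 TPM in mutant cells against 142 and 132 TPM in wild-type cells (log2FC -0.43 ± 0.14, adjusted p = 0.12), and pold2 at 44.6 and 49.9 TPM against 72.0 and 70.4 TPM (log2FC -0.58 ± 0.17, adjusted p = 0.095). The subunit gene pold3 stood at 139 and 160 TPM in mutant cells against 147 and 156 TPM in wild-type cells (log2FC -0.026 ± 0.14, adjusted p = 0.93). The catalytic subunit gene of polymerase epsilon, pole, was the lowest of all 37, at 7.76 and 5.96 TPM in mutant cells against 11.6 and 10.9 TPM in wild-type cells (log2FC -0.65 ± 0.30, adjusted p = 0.26). The log2FCs of pola1, pold1, pold2 and pole were also negative under median-ratio scaling, at -0.54, -0.25, -0.40 and -0.48.

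**Figure D3:**
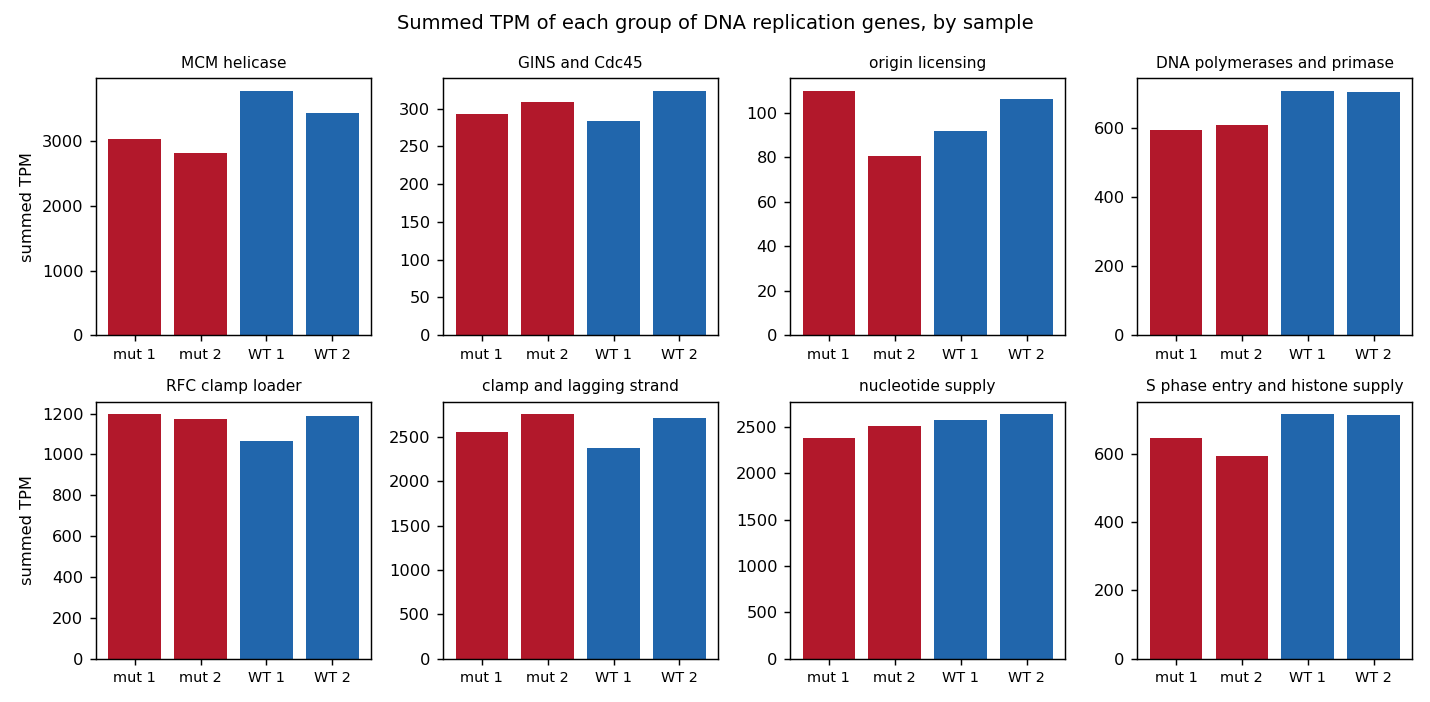
Summed TPM of the members of each group of DNA replication genes in every sample, with mutant samples (mut) in red left of wild-type samples (WT) in blue. In TPM as deposited, the sums of the MCM, polymerase and primase, nucleotide supply, and S phase entry and histone supply genes were lower in both mutant samples. The other 4 sums overlapped between the groups. Under median-ratio scaling the ratios of the sums that were lower were 0.920, 0.964, 1.07 and 0.981, in the same order.

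The summed levels of the clamp loader genes and of the clamp genes overlapped between the groups in TPM as deposited. RFC opens the PCNA ring and closes it around primed DNA. Its 4 small subunit genes summed to 1196 and 1171 TPM in mutant cells against 1065 and 1188 TPM in wild-type cells, with wild-type replicate 1 below the other samples. The ratio of the group means was 1.05, and 1.19 under median-ratio scaling. Both mutant samples were higher for rfc4 and rfc5, beside 18.2% of all genes. Under median-ratio scaling this held for 3 of the 4 genes, beside 28.7% of all genes. For rfc3 the levels were 253 and 239 TPM in mutant cells against 204 and 243 TPM in wild-type cells (log2FC 0.14 ± 0.13, adjusted p = 0.55), and for rfc5 263 and 262 TPM against 241 and 260 TPM (log2FC 0.070 ± 0.11, adjusted p = 0.76). The gene rfc4, the most abundant of the 4, had a log2FC of 0.097 ± 0.11, and rfc2 one of -0.096 ± 0.13, which was 0.086 under median-ratio scaling; the groups were then separated for rfc3, higher in both mutant samples, and overlapped for rfc2.

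The clamp and lagging strand genes summed to 2556 and 2751 TPM in mutant cells against 2373 and 2705 TPM in wild-type cells. The ratio of the group means was 1.05, and 1.18 under median-ratio scaling. Most of this sum was pcna, with 79.1% and 79.5% in mutant cells and 79.5% and 80.3% in wild-type cells. The sliding clamp gene pcna stood at 2021 and 2187 TPM in mutant cells against 1887 and 2172 TPM in wild-type cells (log2FC 0.055 ± 0.093, interval from -0.15 to 0.26, adjusted p = 0.77), and its sign was negative with quantile normalization. The flap endonuclease gene fen1, whose product trims RNA primers from lagging strand fragments, stood at 497 and 513 TPM in mutant cells against 429 and 488 TPM in wild-type cells (log2FC 0.14 ± 0.11, adjusted p = 0.49). DNA ligase 1, which seals the fragments, is encoded by lig1, at 37.4 and 51.4 TPM in mutant cells against 57.4 and 45.3 TPM in wild-type cells (log2FC -0.21 ± 0.22, adjusted p = 0.61). The replicates of lig1 lay farther apart than the group means.

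The nucleotide supply genes summed to 2381 and 2510 TPM in mutant cells against 2569 and 2632 TPM in wild-type cells. The ratio was 0.940, and above 1 under median-ratio scaling, at 1.07. Most of this sum was rrm2, with 70.4% and 70.3% in mutant cells and 69.7% and 71.4% in wild-type cells. Both mutant samples were lower for 2 of the 5 genes and higher for 1, beside 34.9% and 18.2% of all genes. Under median-ratio scaling these counts were 0 and 1, beside 25.5% and 28.7%. Ribonucleotide reductase makes deoxynucleotides from ribonucleotides, with a large subunit encoded by rrm1 and a small subunit by rrm2. The level of rrm1 was 371 and 376 TPM in mutant cells against 477 and 406 TPM in wild-type cells (log2FC -0.23 ± 0.12, adjusted p = 0.28). Dihydrofolate reductase and thymidylate synthase, which supply thymidylate, are encoded by dhfr and tyms. The gene dhfr stood at 119 and 126 TPM in mutant cells against 113 and 138 TPM in wild-type cells (log2FC -0.022 ± 0.15, adjusted p = 0.95), and tyms at 75.4 and 103 TPM against 74.4 and 83.4 TPM (log2FC 0.16 ± 0.18, adjusted p = 0.65). The uracil-DNA glycosylase gene unga, whose product removes uracil from DNA, stood at 139 and 139 TPM in mutant cells against 116 and 126 TPM in wild-type cells (log2FC 0.20 ± 0.13, adjusted p = 0.43). It was counted in the sum of this group although its product does not itself supply nucleotides.

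The total of rrm2 did not pass the test, whereas 1 of the gene IDs that share its name did. That ID was the only one called among the gene IDs of all the replication genes, beside 5.5% of all gene IDs. Calls were thus not more frequent among the gene IDs of the replication genes than among all gene IDs. In total rrm2 stood at 1677 and 1766 TPM in mutant cells against 1789 and 1880 TPM in wild-type cells (log2FC -0.092 ± 0.083, adjusted p = 0.56). The gene ID ENSDARG00000020711 stood at 457 and 499 TPM in mutant cells against 919 and 857 TPM in wild-type cells. The gene ID ENSDARG00000078069 stood at 1220 and 1267 TPM in mutant cells against 870 and 1023 TPM in wild-type cells. The share of ENSDARG00000020711 was 27.2% and 28.2% of the rrm2 level in mutant cells against 51.4% and 45.6% in wild-type cells. In a limma fit over 15690 gene IDs, in which 5.5% were called, 3.66% lower and 1.84% higher, ENSDARG00000020711 fell (log2FC -0.89 ± 0.10, adjusted p = 0.0019), and this held when any 1 sample was left out (adjusted p = 0.0091 to 0.0498) but not with limma without trend and robust (0.12). The other ID did not pass (log2FC 0.40 ± 0.10, adjusted p = 0.060), although it did without wild-type replicate 2 (0.041). Both IDs carry the symbol RRM2 in the reference table of gene names. How alike their transcripts are was not examined, so the split of reads between them is uncertain.

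**Figure D4:**
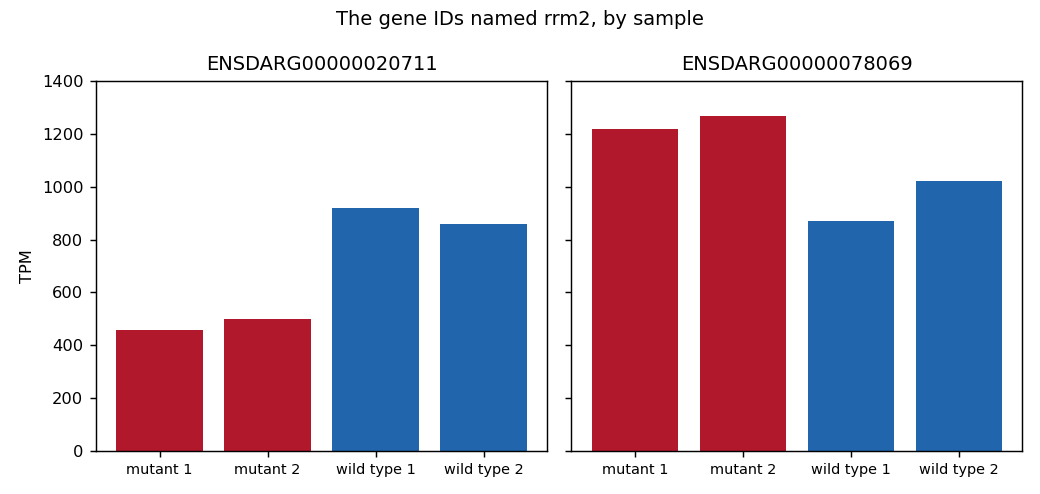
TPM of the gene IDs named rrm2 in every sample, with mutant samples in red left of wild-type samples in blue. ENSDARG00000020711 stood at 457 and 499 TPM in mutant cells against 919 and 857 TPM in wild-type cells, and ENSDARG00000078069 was higher in both mutant samples than in both wild-type samples.

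At the level of transcripts, 71 of the 101 transcripts of the 37 genes reached a mean of 1 TPM, and 2 of them were called in a fit in which 2.52% of all transcripts were. Both belonged to rrm2, 1 to each gene ID. ENSDART00000027851, of ENSDARG00000020711, fell to 348 and 376 TPM in mutant cells, against 738 and 721 TPM in wild-type cells (limma, log2FC -1.01 ± 0.09, adjusted p = 0.0060). ENSDART00000112155, of ENSDARG00000078069, rose to 432 and 434 TPM in mutant cells, against 233 and 284 TPM in wild-type cells (log2FC 0.75 ± 0.12, adjusted p = 0.034). Neither transcript passed when any 1 sample was left out (adjusted p = 0.067 to 0.11 for the fall and 0.12 to 0.22 for the rise) or under median-ratio scaling (0.054 and 0.065).

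In all, 7 of the 37 genes summed 2 or more gene IDs, namely ccne1, cdc6, chaf1a, lig1, pole, rfc3 and rrm2. For cdc6 the minor ID ENSDARG00000109602 held 10.98% and 6.66% of the level in mutant cells and 19.5% and 20.1% in wild-type cells, and for pole the minor ID ENSDARG00000115430 held 2.39% and 3.10% in mutant cells and 17.8% and 15.0% in wild-type cells. Neither minor ID passed the test per gene ID (adjusted p = 0.090 and 0.15). The IDs of rfc3 and ccne1 had shares that overlapped between the groups, and for chaf1a the ID ENSDARG00000062152 held 44.3% and 44.3% in mutant cells against 46.4% and 52.4% in wild-type cells. For lig1 the minor IDs were at or near 0 in wild-type replicate 2 alone, where the main ID held 99.95% of the level.

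Cyclin E drives entry into S phase. With the histone supply genes its genes summed to 646 and 592 TPM in mutant cells against 715 and 713 TPM in wild-type cells, a ratio of 0.867, and 0.981 under median-ratio scaling. The gene ccne1 stood at 26.2 and 20.3 TPM in mutant cells against 35.0 and 32.7 TPM in wild-type cells (log2FC -0.54 ± 0.23, adjusted p = 0.22), and ccne2 at 41.4 and 41.2 TPM in mutant cells against 36.7 and 48.8 TPM in wild-type cells (log2FC -0.036 ± 0.21, adjusted p = 0.94). The stem-loop binding protein gene slbp, needed for histone mRNA processing, stood at 274 and 245 TPM in mutant cells against 274 and 297 TPM in wild-type cells (log2FC -0.14 ± 0.12, adjusted p = 0.53). The large subunits of CAF-1, which deposits histones behind the fork, are encoded by chaf1a and chaf1b. For chaf1a the levels were 204 and 194 TPM in mutant cells against 256 and 223 TPM in wild-type cells (log2FC -0.27 ± 0.12, adjusted p = 0.27), and for chaf1b 101 and 92.6 TPM against 113 and 111 TPM (log2FC -0.21 ± 0.14, adjusted p = 0.42). Of the 5 genes of this group, ccne2 and slbp had a positive sign under median-ratio scaling.

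Outside the 37 genes, 146 genes of the wider replication and cell cycle machinery were tested, of which 1 rose and 2 fell, against 4.08% of all genes; their median log2FC was -0.14. None of 17 origin recognition and loading genes, 2 MCM paralogs, 24 other replisome factors, 13 chromatin replication genes or 31 mitosis genes passed limma at an adjusted p under 0.05, and at an unadjusted p under 0.05 their counts were 2, 0, 4, 3 and 3, beside 20.4% of all genes. Of 17 other nucleotide supply genes 1 was called higher and 2 had an unadjusted p under 0.05. Of 22 S phase regulators 1 was called lower and 7 had an unadjusted p under 0.05, 6 of them lower. Of 20 genes of cell cycle exit and p53 targets 1 was called lower and 3 had an unadjusted p under 0.05. In TPM as deposited, 55 of the 146 genes had both mutant samples lower and 28 both higher, beside 34.9% and 18.2% of all genes. These counts were 12 and 2 of the 17 origin recognition and loading genes, and 11 and 3 of the 22 S phase regulators. They were 10 and 8 of the 31 mitosis genes and 8 and 6 of the 24 other replisome factors. For chromatin replication they were 4 and 3 of 13, and for other nucleotide supply 3 and 3 of 17. Cell cycle exit and p53 targets had 7 and 3 of 20, and the 2 MCM paralogs 0 and 0. Counts under median-ratio scaling are not given for these lists. The replication protein A gene rpa2 stood at 590 and 572 TPM in mutant cells against 512 and 576 TPM in wild-type cells, and rpa1 at 434 and 408 TPM against 496 and 447 TPM. Among chromatin replication genes, the histone chaperone gene rbbp4 stood at 613 and 661 TPM in mutant cells against 639 and 670 TPM in wild-type cells, and nasp at 590 and 559 TPM against 661 and 699 TPM. Both mutant samples were lower for rpa1 and nasp and the groups overlapped for rpa2 and rbbp4. The mitotic kinase gene plk1 stood at 384 and 350 TPM in mutant cells against 397 and 350 TPM in wild-type cells, and ube2c, a ubiquitin-conjugating enzyme gene of mitotic exit, at 374 and 383 TPM against 351 and 366 TPM. The groups overlapped for plk1, and ube2c was higher in both mutant samples (log2FC 0.076 ± 0.11, adjusted p = 0.71). The origin recognition gene orc4 stood at 156 and 170 TPM in mutant cells against 209 and 238 TPM in wild-type cells (log2FC -0.45 ± 0.13, adjusted p = 0.089), and orc6 at 152 and 160 TPM against 186 and 188 TPM. The MCM paralogs mcm3l and mcm6l, related to mcm3 and mcm6, were at most 0.51 and 1.40 TPM in any sample and averaged under 1 TPM, and mcm8 and mcm9 were at most 8.39 TPM.

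The genes that passed were ctps1b, cdk4 and phlda3. CTP synthase makes cytidine nucleotides, and ctps1b rose to 33.1 and 36.1 TPM in mutant cells, against 15.8 and 15.4 TPM in wild-type cells (log2FC 1.102 ± 0.23, adjusted p = 0.029). The G1 kinase gene cdk4 fell to 2.94 and 3.70 TPM in mutant cells, against 9.82 and 11.6 TPM in wild-type cells (log2FC -1.44 ± 0.33, adjusted p = 0.041). The p53 target gene phlda3 fell to 71.2 and 72.9 TPM in mutant cells, against 106 and 144 TPM in wild-type cells (log2FC -0.77 ± 0.17, adjusted p = 0.040). All 3 calls were lost when either mutant sample was left out (adjusted p = 0.12, 0.17 and 0.16 for ctps1b, cdk4 and phlda3 without replicate 1, and 0.23, 0.17 and 0.22 without replicate 2). That of cdk4 was also lost without wild-type replicate 1 (0.059) or 2 (0.10) and that of phlda3 without wild-type replicate 2 (0.14) and under median-ratio scaling (0.13).

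**Figure D5:**
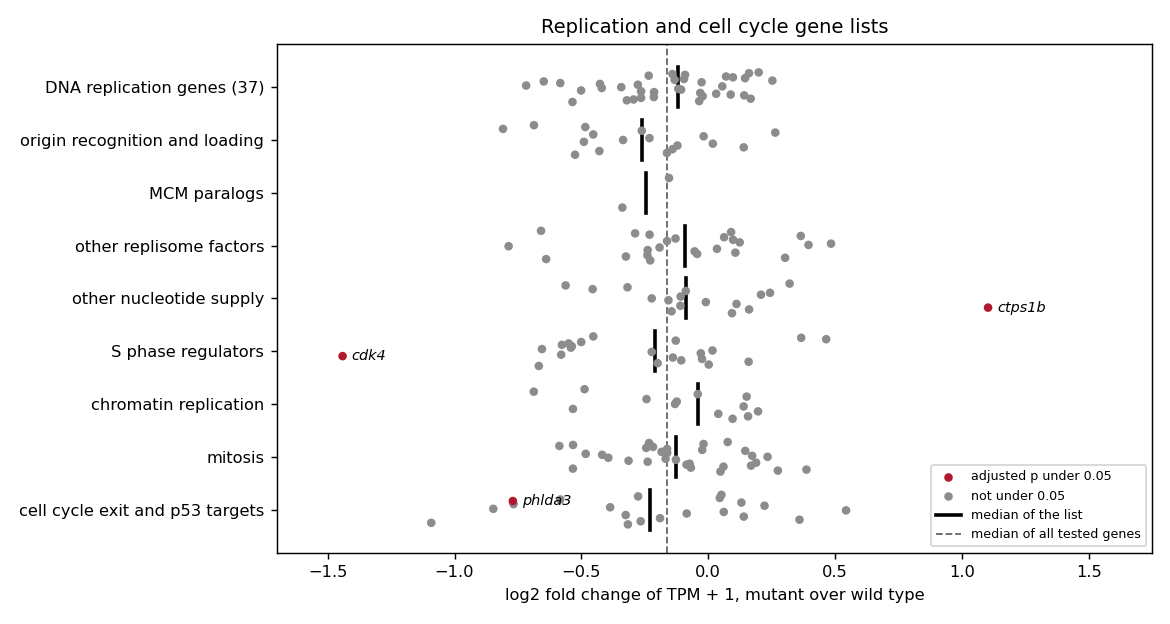
Log2 fold change of TPM + 1 in mutant over wild-type cells for the tested genes of each replication and cell cycle list (points), with the median of each list (black bars) and of all genes tested (dashed line). The called genes ctps1b, cdk4 and phlda3 are red, and the 37 DNA replication genes in the top row hold none.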

How the data were processed

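The authors deposited a table of TPM for 65905 zebrafish transcripts with a column for each of the 4 samples; per the submitters' processing notes, kallisto and GRCz11 were used, and further steps are not given in the sources used here. Of these, 8130 transcripts had empty cells, and 0 sample columns went unused. Read depth is unknown from TPM, so no counting interval was given. TPM was summed per gene name (26267 genes), the 14217 genes that averaged at least 1 TPM were tested on log2(TPM + 1), which understates changes of low genes, with limma 3.58.1 in R 4.3.3 (trend and robust, statmod 1.5.0), two-sided, with Benjamini-Hochberg adjustment over all genes and calls at an adjusted p under 0.05. The procedure was run on simulated data whose spread was drawn from the same fit and whose changes were 2-fold or more. That run does not bear on smaller differences, such as those of the replication genes. The replication genes and the lists were chosen with earlier results of these data known, so no list was tested as a set. Values per sample were planned for the genes with the smallest and the largest p of each group; the other genes named were added after their values were seen, as were fits per transcript and the detailed fits per gene ID. With 2 samples against 2, an exact permutation test cannot go below a two-sided p of 0.333 and was not used. P-values rest on the spread between these samples, and limma draws the spread of each gene toward that of other genes of like level.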

Additional observations from a re-analysis of the deposited data

How the results depend on the processing

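The genes called higher numbered 161 and those called lower 419. Without a filter the counts were 1 and 3, without trend and robust 0 and 0 (with 2531 genes at an unadjusted p under 0.05), with median-ratio scaling 364 were higher, per gene ID 289 were higher, with quantile normalization 254 were lower, and leaving out 1 sample gave 28 to 182 higher and 82 to 538 lower, with the lowest counts without mutant replicate 2; a sample left alone in its group was taken to vary like the other group. Of the replication genes 0 were called. With quantile normalization 1 was lower, per gene ID 1 was lower, per transcript 1 was higher and 1 lower, and 0 to 1 were lower when 1 sample was left out. The deviations of same-numbered samples were nearly uncorrelated over genes (-0.01 over 14217 genes). With only 2 pairs this cannot settle whether the replicate numbers pair the samples. With the replicate block 3 replication genes were lower, namely mcm3, mcm6 and mcm7 (limma adjusted p = 0.033, 0.048 and 0.041), and 0 were higher. Of all 14217 genes, 166 were then called higher and 399 lower. With the block, 11 replication genes had an unadjusted p under 0.05, beside 3487 of all genes. Without it these counts were 7 and 2900. The median log2 fold change of the replication genes was 0.065 with median-ratio scaling. That scaling put the ratios of summed TPM at 0.920 (MCM), 1.12 (GINS and Cdc45), 1.08 (origin licensing, 0.960 as deposited), 0.964 (polymerases and primase), 1.19 (RFC), 1.18 (clamp and lagging strand), 1.07 (nucleotide supply), 0.981 (S phase entry and histone supply) and 1.05 (all 37 genes). Leaving mitochondrial transcripts and ribosomal protein genes out of the scaling gave 0.863 for polymerases and primase and 0.939 for all 37. Leaving out 1 sample gave 0.997 to 1.11 for RFC, 0.812 to 1.11 for origin licensing and 0.829 to 0.904 for S phase entry and histone supply. Of the 37 genes, 10 had the opposite sign with median-ratio scaling, 3 with quantile normalization and 3 to 5 when 1 sample was left out, all without a call. Outside the 37 genes, ctps1b, cdk4 and phlda3 were not called without a filter (adjusted p = 0.13, 0.16 and 0.20) or without trend and robust (0.11, 0.086 and 0.22), and cdk4 and phlda3 not with quantile normalization (0.092 and 0.055). The causes were not tested. Read depth is unknown, so what it limits could not be set out.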
